A study of Arabidopsis thaliana with 29 samples.

Results

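The 6 genes described here encode the enzymes that build proline from glutamate and take it apart again in Arabidopsis thaliana: P5CS1 (AT2G39800), P5CS2 (AT3G55610) and P5CR (AT5G14800) for synthesis, and ProDH1 (AT3G30775), ProDH2 (AT5G38710) and P5CDH (AT5G62530) for breakdown. They were picked by locus identifier and are 6 of the 33559 genes in the deposited expression table. Leaves of 3-week-old, soil-grown Col-0 wild-type plants were profiled by RNA sequencing 6, 24 and 72 h after a spray with a 10 μM solution of AMF4, AMF1β or the plant hormone abscisic acid (ABA), or with the solvent DMSO as control. AMF4 and AMF1β are synthetic ABA receptor agonists that were developed from the earlier agonist AM1. Below, sprayed libraries and plants are those that received AMF4, AMF1β or ABA, while the DMSO plants received the solvent only. The 29 libraries comprised 3 each of AMF4, AMF1β, ABA and DMSO at 6 h. At 24 h there were 2 of AMF4 and 3 each of AMF1β, ABA and DMSO. At 72 h there were 2 of AMF4, 2 of AMF1β, 1 of ABA and 1 of DMSO.

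Proline accumulates in leaves during drought and after ABA treatment, where it serves as an osmolyte, a redox buffer and a store of carbon and nitrogen. P5CS (delta-1-pyrroline-5-carboxylate synthetase) catalyses the first and rate-limiting reaction, from glutamate to pyrroline-5-carboxylate, and P5CR (pyrroline-5-carboxylate reductase) finishes the synthesis. In mitochondria, ProDH (proline dehydrogenase) oxidises proline back to pyrroline-5-carboxylate and P5CDH (pyrroline-5-carboxylate dehydrogenase) returns it to glutamate. Water deficit classically raises P5CS1 transcripts and lowers ProDH1 transcripts, while proline itself and rehydration induce ProDH1. P5CS2 is known mainly for housekeeping and embryo development.

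All values are FPKM (fragments per kilobase of transcript, scaled to library size), as deposited. All 6 genes were among the 18521 genes that reached 1 FPKM in at least 2 libraries and entered the tests. A gene was called when limma gave a Benjamini-Hochberg adjusted p under 0.05 over these 18521 genes together with a change beyond 2-fold, and every log2 fold change is on the log2(FPKM + 1) scale, which understates the change of low genes. The study's methods call the replicates biological, while the labels do not say which plants or sprays each library came from, so each p-value measures the spread among these libraries. The 72 h tests assume that the lone ABA and DMSO libraries vary like the other groups. In whole-leaf RNA, fewer cells of a type and less RNA per cell cannot be told apart.

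The upstream sequences of 4 members are shown. P5CS1 and ProDH1 hold the entry reactions of synthesis and breakdown, and P5CR was lower 6 h after the spray. P5CDH, called in no comparison with DMSO, shares a short motif with ProDH1. The choice does not follow the calls, since ProDH2, called after AMF4 and AMF1β at 6 h, is not shown. Each run is the 250 bases before the annotated gene start, 5′ to 3′ on the strand of the gene, from RefSeq's copy of the TAIR10.1 assembly. All 4 genes lie on the minus strand. Capitals mark matches, on either strand, to ACTCAT (an element of the ProDH1 promoter bound by bZIP factors), ACGTG (the core of the ABA-responsive element) or CCGAC (the core of the dehydration-responsive element).
ProDH1, chr3:12451557-12451806: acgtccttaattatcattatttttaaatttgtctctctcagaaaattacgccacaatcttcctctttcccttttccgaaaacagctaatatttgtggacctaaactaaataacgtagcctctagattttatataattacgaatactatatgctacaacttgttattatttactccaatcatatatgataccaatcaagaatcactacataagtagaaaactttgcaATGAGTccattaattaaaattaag
P5CDH, chr5:25103313-25103562: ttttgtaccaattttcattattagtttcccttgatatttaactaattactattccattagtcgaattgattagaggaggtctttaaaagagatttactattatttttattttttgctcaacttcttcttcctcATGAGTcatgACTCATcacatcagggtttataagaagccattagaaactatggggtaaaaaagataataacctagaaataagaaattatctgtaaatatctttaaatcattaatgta
P5CR, chr5:4787997-4788246: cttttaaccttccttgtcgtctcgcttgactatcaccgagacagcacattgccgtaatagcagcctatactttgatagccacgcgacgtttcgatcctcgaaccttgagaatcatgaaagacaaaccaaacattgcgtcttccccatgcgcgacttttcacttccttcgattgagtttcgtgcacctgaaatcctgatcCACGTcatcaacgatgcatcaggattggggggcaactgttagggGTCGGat
P5CS1, chr2:16603320-16603569: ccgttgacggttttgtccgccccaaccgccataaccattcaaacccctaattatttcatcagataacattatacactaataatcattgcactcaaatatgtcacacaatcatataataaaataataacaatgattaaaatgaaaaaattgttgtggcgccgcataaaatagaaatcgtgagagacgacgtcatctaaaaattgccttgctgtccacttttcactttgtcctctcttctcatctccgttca
ProDH1 had 1 match to ACTCAT, written ATGAGT on its own strand and placed 24 to 19 bases before the gene start. P5CDH had 2 such matches, 117 to 112 and 107 to 102 bases before the start. P5CR had 1 ACGTG match and 1 CCGAC match, and P5CS1 had none of the 3 motifs in this window. Of the windows not shown, that of P5CS2 had 1 CCGAC match and that of ProDH2 had none. Among 27443 protein-coding promoters of the same length, 12.3% held ACTCAT, 22.9% held ACGTG and 12% held CCGAC, so that a match is common and is given as a description only. The search found letters, not sites of binding.

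In the TAIR10.1 annotation P5CS1 lies at chr2:16598072-16603319, P5CS2 at chr3:20624020-20629295, P5CR at chr5:4785960-4787996, ProDH1 at chr3:12448636-12451556 and P5CDH at chr5:25099003-25103312, all on the minus strand, and ProDH2 at chr5:15501126-15504269 on the plus strand. The members differed in how separable their reads are. The aligned coding sequences of P5CS1 and P5CS2 were 86.3% identical, yet only 5 of the 3012 windows of 49 bases in P5CS1 transcripts recurred exactly in P5CS2. ProDH1 and ProDH2 were 77.2% identical and shared no such window. P5CS1, P5CS2 and P5CDH each overlap a gene on the opposite strand, over 91, 32 and 905 bases, and the sources used here do not say whether reads were counted by strand, so reads from these stretches could not be assigned with certainty. The neighbour of P5CDH, SRO5 (AT5G62520), a gene known to form a natural antisense pair with it, stayed too low for the tests, with group means of 0 to 0.85 FPKM. The neighbours of P5CS1 and P5CS2, AT2G39795 and AT3G55605, were not called in any of the 26 comparisons.

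The leaf label was checked against markers. The summed FPKM of 4 leaf genes (RBCS1A, LHCB2.1, CA1 and LHCA1) lay between 11513 and 44974 in every library, whereas 5 root markers, 6 flower and pollen markers and 4 shoot meristem markers summed to at most 4.77, 3.17 and 3.43 FPKM, and the root hair gene EXPA7 and the stem cell gene CLV3 were at 0 in all of them. All 3 of these maxima came from replicate 1 of AMF4 at 6 h, which also had the lowest relative depth (0.46 of the median library, against up to 1.95) and 21835 genes at 1 FPKM or more, against 16265 to 16872 in the other libraries. Replicate 3 of AMF4 at 6 h had the lowest leaf marker sum, and RBCS1A was called lower after AMF4 at 6 h (-1.05, adjusted p = 0.0371 in limma). The clock gene LHY was at 0.433 to 0.983 FPKM in the 9 compound-sprayed libraries at 6 h but at 27.9, 10.6 and 0.436 FPKM in the DMSO libraries of that time, so that only DMSO replicate 3 had the LHY level of the sprayed plants. Member values at 6 h without these libraries are given where they change a call against DMSO. Shifts of other differences are given for some members only.

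ProDH1, the gene of the enzyme that starts proline breakdown, was called more often than any other member. It was higher after all 3 compounds at 6 h and stayed higher after AMF4 and AMF1β, but not after ABA, at 24 h. P5CS1, the stress-responsive synthesis gene, was called only after AMF4 at 24 h, where it reached its highest level of the whole series. P5CR was lower in every sprayed library at 6 h. P5CS2 and P5CDH were called in no comparison with DMSO, but P5CS2 was called in a fit with a leaf marker covariate, which also changed other calls and is described further on.

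**Figure D1:**
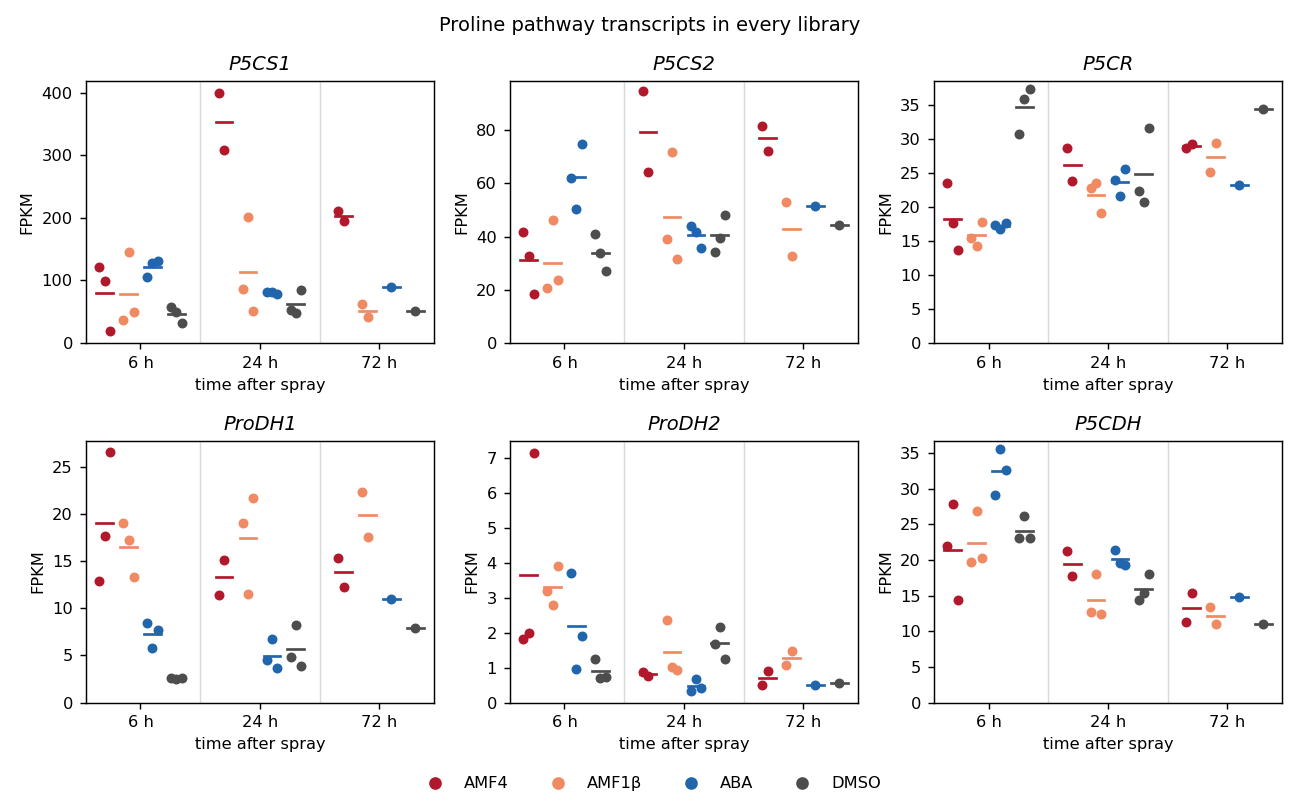
FPKM (y axis, linear from 0) of the 6 genes in each of the 29 libraries at 6, 24 and 72 h after the spray (x axis); points are libraries, horizontal bars are group means, and the order within each time is AMF4, AMF1β, ABA and DMSO. P5CS1 stands at 400 and 308 FPKM after AMF4 at 24 h, and ProDH1 at 6 h lies at 5.77 FPKM or more in every sprayed library against at most 2.62 FPKM after DMSO.

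P5CS1 spread widely within the AMF4 and AMF1β groups at 6 h. It had 122, 99.4 and 19.6 FPKM after AMF4, 36.9, 146 and 50.2 FPKM after AMF1β, 105, 128 and 131 FPKM after ABA, and 58.0, 49.9 and 31.4 FPKM after DMSO. The ABA libraries all lay above the DMSO libraries, whereas the AMF4 and AMF1β libraries straddled them. The log2 fold change over DMSO was 1.41 (SE 0.55) for ABA, with an adjusted p of 0.0764, and 0.46 (SE 0.55) for AMF4 and 0.52 (SE 0.55) for AMF1β, with adjusted p = 0.554 and 0.560. Single AMF4 libraries moved the AMF4 difference, which was 1.27 (adjusted p = 0.0574) without replicate 3 and -0.02 (adjusted p = 0.991) without replicate 1. Without replicate 3 of AMF4 in the shared estimate of the spread, the ABA difference of 1.41 was called (adjusted p = 0.0221). With DMSO replicate 3 as the only control the differences were 0.97 for AMF4, 1.02 for AMF1β and 1.91 for ABA, none called.

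At 24 h P5CS1 was called after AMF4. It had 400 and 308 FPKM after AMF4, 86.4, 202 and 51.4 FPKM after AMF1β, 82.1, 81.3 and 78.0 FPKM after ABA, and 52.9, 47.2 and 84.6 FPKM after DMSO. Both AMF4 libraries exceeded every other library of the series. The log2 fold change of AMF4 over DMSO was 2.54 (SE 0.61, 95% interval 1.27 to 3.81, adjusted p = 0.0114), and it stayed as large with 1 AMF4 library, at 2.35 without replicate 1 (adjusted p = 0.122) and 2.73 without replicate 2 (adjusted p = 0.0741), although neither was then called. AMF1β and ABA differed from DMSO by 0.69 (SE 0.55) and 0.43 (SE 0.55) and were not called.

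At 72 h P5CS1 had 211 and 194 FPKM after AMF4, 61.6 and 40.9 FPKM after AMF1β, 89.7 FPKM after ABA and 50.9 FPKM after DMSO. The AMF4 libraries were again the highest. The AMF4 log2 fold change of 1.97 (SE 0.82) had an adjusted p of 0.272 against the lone DMSO library, and 1.80 with an adjusted p of 0.0344 when the DMSO libraries of 24 and 72 h served together as control. In the order of the 12 group means, AMF4 at 24 h (354 ± 65.0 FPKM, SD, n = 2) and AMF4 at 72 h (202 ± 11.5, n = 2) came first and did not overlap with each other. ABA at 6 h followed with 122 ± 14.1 FPKM (n = 3) and overlapped with AMF1β at 24 h (113 ± 78.9, n = 3). At the low end, AMF1β at 72 h (51.3 ± 14.6, n = 2), DMSO at 72 h (50.9, n = 1) and DMSO at 6 h (46.4 ± 13.6, n = 3) overlapped.

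P5CS2 moved in the same libraries as P5CS1 but over a narrower range, 18.4 to 94.6 FPKM against 19.6 to 400 FPKM. At 6 h it had 41.8, 32.8 and 18.4 FPKM after AMF4, 20.7, 46.1 and 23.6 FPKM after AMF1β, 62.1, 50.3 and 74.9 FPKM after ABA, and 40.8, 33.7 and 27.2 FPKM after DMSO. The ABA libraries lay above the DMSO libraries and the others overlapped with them. The ABA log2 fold change of 0.86 (SE 0.32) had an adjusted p of 0.0631. The AMF4 difference of -0.18 was -0.43 without AMF4 replicate 1 and 0.14 without AMF4 replicate 3. The AMF1β difference of -0.23 was 0.05 with DMSO replicate 3 as the only control. At 24 h P5CS2 had 94.6 and 64.3 FPKM after AMF4 against 34.2, 39.6 and 48.1 FPKM after DMSO (log2 fold change 0.94, SE 0.36, adjusted p = 0.111). AMF1β and ABA spanned 31.6 to 71.8 and 35.6 to 44.0 FPKM at that time and overlapped with DMSO. At 72 h it had 81.7 and 72.1 FPKM after AMF4, 52.9 and 32.6 FPKM after AMF1β, 51.6 FPKM after ABA and 44.4 FPKM after DMSO, and none of these differences was called.

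P5CR, which completes the synthesis of proline, was lower at 6 h. It had 23.5, 17.6 and 13.6 FPKM after AMF4, 15.5, 14.2 and 17.7 FPKM after AMF1β, 17.3, 16.7 and 17.7 FPKM after ABA, and 30.7, 35.9 and 37.3 FPKM after DMSO. None of the 9 sprayed libraries reached the lowest DMSO library. The log2 fold changes were -0.92 (AMF4), -1.08 (AMF1β) and -0.96 (ABA), each with SE 0.17, and the adjusted p-values were 0.000417, 0.000136 and 0.000335. The 3 differences lay close to the 2-fold limit, which only that of AMF1β passed. The AMF4 difference was called without AMF4 replicate 1 (-1.11) and with DMSO replicate 3 as the only control (-1.02), where the ABA difference was called too (-1.07), and the ABA difference was also called without DMSO replicate 1 (-1.04). DMSO replicate 3, whose LHY level was that of the sprayed plants, had the highest P5CR value. At 24 h P5CR had 19.1 to 28.6 FPKM in the sprayed libraries and 20.7 to 31.6 FPKM after DMSO, and at 72 h 23.3 to 29.3 FPKM in the sprayed libraries and 34.4 FPKM in the lone DMSO library, with no call at either time.

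ProDH1 had 12.9, 17.6 and 26.5 FPKM after AMF4 at 6 h, 19.0, 17.2 and 13.2 FPKM after AMF1β, 8.40, 5.77 and 7.69 FPKM after ABA, and 2.62, 2.53 and 2.61 FPKM after DMSO. The AMF4 and AMF1β libraries all lay above the ABA libraries, which all lay above the DMSO libraries. The log2 fold change over DMSO was 2.42 (SE 0.27, adjusted p = 3.47e-06) for AMF4, 2.27 (SE 0.27, adjusted p = 1.29e-05) for AMF1β and 1.19 (SE 0.27, adjusted p = 0.00302) for ABA. The DMSO libraries lay close together. With DMSO replicate 3 as the only 6 h control the differences were 2.41 for AMF4, 2.26 for AMF1β and 1.19 for ABA, the last no longer called.

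At 24 h ProDH1 had 11.4 and 15.1 FPKM after AMF4, 19.0, 11.5 and 21.7 FPKM after AMF1β, 4.46, 6.76 and 3.62 FPKM after ABA, and 4.81, 8.16 and 3.90 FPKM after DMSO. The AMF4 and AMF1β libraries lay above all others, and the ABA libraries overlapped with DMSO. The log2 fold change was 1.15 (SE 0.30, adjusted p = 0.0179) for AMF4 and 1.48 (SE 0.27, adjusted p = 0.00322) for AMF1β, against -0.14 (SE 0.27) for ABA, whose 95% interval was -0.69 to 0.42. The AMF1β call held under all 38 alternatives, though many of them left out libraries of other groups and so kept the difference itself. The AMF4 call was lost under 6 of 38, with differences of 0.82 to 1.41 over the alternatives. Among the 6 were those without either AMF4 library, without DMSO replicate 1 or 3, and with libraries of 24 h only. At 72 h ProDH1 had 15.4 and 12.3 FPKM after AMF4, 22.3 and 17.6 FPKM after AMF1β, 10.9 FPKM after ABA and 7.85 FPKM after DMSO. No 72 h difference was called against the lone DMSO library. With the DMSO libraries of 24 and 72 h as control, AMF4 (1.09, adjusted p = 0.0134) and AMF1β (1.58, adjusted p = 0.00429) were called and ABA (0.79, adjusted p = 0.559) was not.

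ProDH2, the second proline dehydrogenase, was the lowest of the members, at 0.325 to 7.16 FPKM. At 6 h it had 1.82, 2.0 and 7.16 FPKM after AMF4, 3.20, 2.81 and 3.92 FPKM after AMF1β, 3.71, 0.956 and 1.91 FPKM after ABA, and 1.24, 0.707 and 0.736 FPKM after DMSO. The AMF4 and AMF1β libraries lay above DMSO and the ABA libraries overlapped with it. It was called after AMF4 (log2 fold change 1.13, SE 0.33, adjusted p = 0.0149) and AMF1β (1.19, SE 0.33, adjusted p = 0.0151). The AMF4 call was lost without replicate 3 of AMF4 (0.63, adjusted p = 0.110) and under quantile normalization (0.91, adjusted p = 0.0580). Both calls were lost without DMSO replicate 2, with differences of 1.06 for AMF4 and 1.12 for AMF1β (adjusted p = 0.0507 and 0.0530), and with DMSO replicate 3 as the only control, with differences of 1.24 and 1.30 (adjusted p = 0.10 and 0.0958). The AMF1β call was lost without AMF1β replicate 3 (1.09, adjusted p = 0.0580). With libraries of 6 h only, both calls were lost at unchanged differences (adjusted p = 0.0600 for AMF4 and 0.0664 for AMF1β in limma), so they rest on the spread shared with other times. At 24 h it had 0.880 and 0.758 FPKM after AMF4, 2.37, 1.01 and 0.939 FPKM after AMF1β, 0.325, 0.684 and 0.415 FPKM after ABA, and 1.67, 2.17 and 1.24 FPKM after DMSO. The AMF4 and ABA libraries then lay below DMSO, with log2 fold changes of -0.55 (adjusted p = 0.408) and -0.86 (adjusted p = 0.229).

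P5CDH, which closes the cycle back to glutamate, spanned 11 to 35.5 FPKM. At 6 h it had 22, 27.8 and 14.4 FPKM after AMF4, 19.7, 26.9 and 20.3 FPKM after AMF1β, 29.1, 35.5 and 32.7 FPKM after ABA, and 23.1, 26.1 and 23.1 FPKM after DMSO. The ABA libraries all lay above DMSO, and the others overlapped with it. Its log2 fold changes over DMSO lay between -0.21 and 0.41 over the 9 comparisons, and none was called. The AMF4 difference at 6 h, -0.21, was 0.04 without AMF4 replicate 3.

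**Figure D2:**
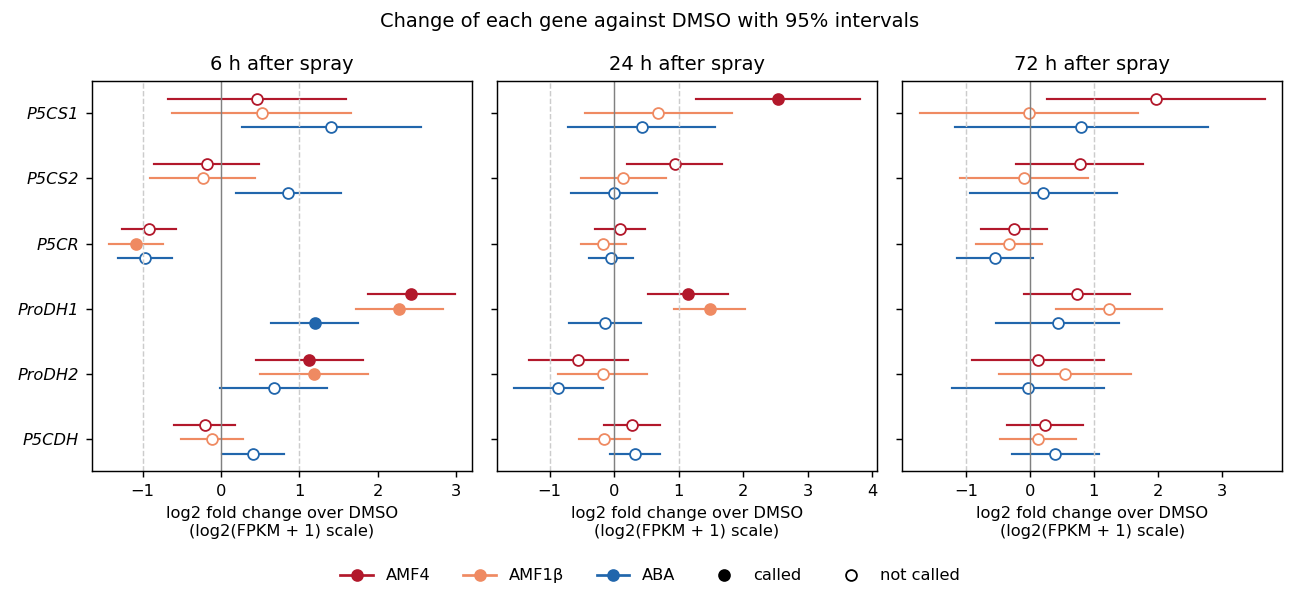
Log2 fold change over DMSO (x axis, log2(FPKM + 1) scale) of the 6 genes (rows) for AMF4, AMF1β and ABA at 6, 24 and 72 h; points are limma estimates, lines are 95% intervals, filled points were called and dashed lines mark 2-fold. ProDH1 is the only gene called for all 3 compounds at 6 h, and P5CS1 after AMF4 at 24 h has the largest estimate, 2.54.

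The members were chosen with earlier results of these data known, so the shares of all genes are set beside them as a description only. Set against all genes tested, 2 of the 6 members were called at 6 h after AMF4, 3 after AMF1β and 1 after ABA, while 8.56%, 5.97% and 6.96% of all genes were. At 24 h 2 members were called after AMF4, 1 after AMF1β and 0 after ABA, against 4.48%, 1.84% and 0.724% of all genes, and 2582 genes had an unadjusted limma p under 0.05 for ABA. At 72 h no member was called with limma, against 1.55%, 0.0108% and 0% of all genes, and ABA had 338 genes at an unadjusted p under 0.05. The ABA count is a smaller share of the 18521 genes than the cutoff of 0.05 itself, so this comparison of 1 library with 1 could not show a lack of difference. P5CS1 after AMF4 and ProDH1 after AMF1β were the only member differences from DMSO with an unadjusted limma p under 0.05 at 72 h.

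The 3 compounds were compared with each other at the same dose and time, in 54 contrasts of 6 genes, 3 pairs and 3 times, each adjusted over all genes tested. AMF4 exceeded ABA for ProDH1 at 6 h (log2 fold change 1.23, SE 0.27, adjusted p = 0.0308, with 0.508% of all genes called) and at 24 h (1.29, SE 0.30, adjusted p = 0.0175, with 2.13% called). AMF1β exceeded ABA for ProDH1 at 24 h (1.62, SE 0.27, adjusted p = 0.00268, with 1.45% called), and the 6 h difference of 1.08 had an adjusted p of 0.0741, with 0.367% called. These were the only 3 calls, and none fell at 72 h, when 0.626% of all genes were called for AMF4 over ABA and 0% for AMF1β over ABA (611 at an unadjusted limma p under 0.05). The count of 611 is a smaller share of all genes tested than the cutoff of 0.05 itself, with 1 ABA library at 72 h. P5CS2 at 6 h was lower after AMF4 than after ABA by -1.04 (95% interval -1.71 to -0.38, adjusted p = 0.0810) and after AMF1β than after ABA by -1.09 (95% interval -1.76 to -0.43, adjusted p = 0.135), neither called. The AMF4 against ABA call at 6 h was lost when any ABA library, or AMF4 replicate 2 or 3, was left out, and that at 24 h when either AMF4 library or ABA replicate 3 was. Both were also lost with libraries of the same time only (adjusted p = 0.0641 at 6 h and 0.0711 at 24 h in limma). Over the alternatives the differences lay between 0.97 and 1.46 at 6 h and between 1.06 and 1.5 at 24 h.

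No member was called between AMF4 and AMF1β, where limma called 0% of all genes at 6 and 24 h (1357 and 1175 at an unadjusted p under 0.05) and 0.0540% at 72 h. The P5CS1 difference came nearest, at 1.85 (SE 0.61, 95% interval 0.58 to 3.12, adjusted p = 0.532) at 24 h and 1.99 (SE 0.67, 95% interval 0.60 to 3.38, adjusted p = 0.239) at 72 h, with both AMF4 libraries above every AMF1β library each time. For ProDH1 the intervals of AMF4 minus AMF1β were -0.40 to 0.71 at 6 h, -0.95 to 0.28 at 24 h and -1.17 to 0.18 at 72 h, so that a 2-fold difference lay outside the interval at 6 and 24 h, while one in favour of AMF1β at 72 h did not. P5CS1 after AMF4 exceeded ABA at 24 h by 2.11 (SE 0.61), with an adjusted p of 0.0585.

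The difference between the effects at 24 and 6 h was tested as an interaction, with 5.97%, 1.24% and 5.25% of all genes called for AMF4, AMF1β and ABA over DMSO. Of the 6 members, 2 were called for AMF4, 0 for AMF1β and 2 for ABA. The ABA effect on ProDH1 fell by 1.33 log2 units between 6 and 24 h (SE 0.38, adjusted p = 0.0317), and that of AMF4 fell by 1.27 (SE 0.40), just short of the limit at an adjusted p of 0.0501. The ProDH2 effects of AMF4 and ABA fell by 1.68 (SE 0.49) and fell by 1.53 (SE 0.47), with adjusted p = 0.0390 and 0.0463. The P5CR effect of AMF4 was higher at 24 h by 1.01 (SE 0.25, adjusted p = 0.0159), and the changes for AMF1β (0.92, adjusted p = 0.0477) and ABA (0.91, adjusted p = 0.0194) missed the 2-fold limit. Part of each of these changes lay in the DMSO plants, where 24 minus 6 h was 0.83 for ProDH1, 0.50 for ProDH2 and -0.48 for P5CR. The ProDH1 means at 6 and 24 h were 7.29 and 4.95 FPKM after ABA, 19.0 and 13.3 FPKM after AMF4, and 2.59 and 5.62 FPKM after DMSO. For P5CR they were 18.2 and 26.2 FPKM after AMF4 and 34.6 and 24.8 FPKM after DMSO. Between compounds, AMF4 minus ABA rose from 6 to 24 h by 3.06 for P5CS1 (SE 0.82, adjusted p = 0.0459). For P5CS2 it rose by 1.98 (SE 0.48, adjusted p = 0.0288), while 2.47% of all genes were called. Both differences changed sign, from -0.95 at 6 h to 2.11 at 24 h for P5CS1 and from -1.04 to 0.94 for P5CS2. For AMF1β over ABA no member was called, against 1.11% of all genes. Each of the 6 calls was lost under 7 or more of 37 alternatives, and those of ProDH2 after ABA and of P5CS1 under 24 and 22.

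The DMSO plants themselves differed between times. ProDH1 was higher at 72 h (7.85 FPKM, 1 library) than at 6 h (2.59 ± 0.0461 FPKM, SD, n = 3), a limma difference of 1.30 (SE 0.38, adjusted p = 0.0153). P5CDH was lower at 72 h (11.1 FPKM) than at 6 h (24.1 ± 1.74 FPKM, n = 3), a limma difference of -1.06 (SE 0.27, adjusted p = 0.00658). Of all genes, 14.5% were called in this comparison, and 10 of 11 clock genes with them, 4 higher and 6 lower. With DMSO replicate 3 as the only 6 h library, 1 library against 1, the differences kept their size at 1.29 (ProDH1, adjusted p = 0.0723) and -0.998 (P5CDH, adjusted p = 0.0491) but were not called. P5CDH had -0.999 (adjusted p = 0.0183) without DMSO replicate 2, just inside the 2-fold limit. No member was called between 24 and 6 h (14.6% of all genes) or between 72 and 24 h (0.0162%), at 2-fold, although ProDH1 was higher at 24 h (0.83, SE 0.27, adjusted p = 0.0174), and P5CR (-0.48, adjusted p = 0.0258) and P5CDH (-0.58, adjusted p = 0.0202) were lower.

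The balance of the entry reactions was followed as log2(FPKM + 1) of P5CS1 minus that of ProDH1 in each library. At 6 h it averaged 2.51 over the 9 sprayed libraries and 3.68 over the 3 DMSO libraries, a difference of -1.17 that did not pass an exact two-sided permutation test (p = 0.2, adjusted p = 0.267 over 4 tests). By compound, the group mean minus DMSO was -1.96 for AMF4, -1.75 for AMF1β and 0.21 for ABA. The lowest value, -0.42, belonged to AMF4 replicate 3, the only library of the series in which ProDH1 exceeded P5CS1, and without it the AMF4 difference was -0.89. The ABA difference was -0.04 without DMSO replicate 3. At 24 h the sprayed libraries averaged 3.51 and the DMSO libraries 3.25 (exact permutation p = 0.776), with differences of 1.39 for AMF4, -0.79 for AMF1β and 0.56 for ABA. Leaving out single libraries of either group gave 0.97 to 1.83 for AMF4, -1.58 to -0.17 for AMF1β and 0.14 to 1.01 for ABA.

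The share of P5CS1 in the FPKM of both P5CS genes was higher in sprayed plants in most libraries. At 6 h it averaged 67.5% in the 9 sprayed libraries and 57.3% in the 3 DMSO libraries (exact permutation p = 0.0636, adjusted p = 0.127), with 1 sprayed library, AMF4 replicate 3 at 51.6%, below all DMSO libraries. At 24 h it averaged 71.0% in the 8 sprayed libraries and 59.6% in the 3 DMSO libraries, a difference of 11.4 percentage points that passed the exact permutation test before adjustment (p = 0.0242) but not after it (adjusted p = 0.0970) and that did not pass without DMSO replicate 1 or 2 (exact permutation p = 0.0889 each). AMF4 at 24 h had the highest share, 81.8% ± 1.32 (SD, n = 2), against 54.3% to 63.8% in the DMSO libraries. At 72 h the share was 72.1% and 73.0% after AMF4, 53.8% and 55.6% after AMF1β, 63.5% after ABA and 53.4% after DMSO, with no test.

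**Figure D3:**
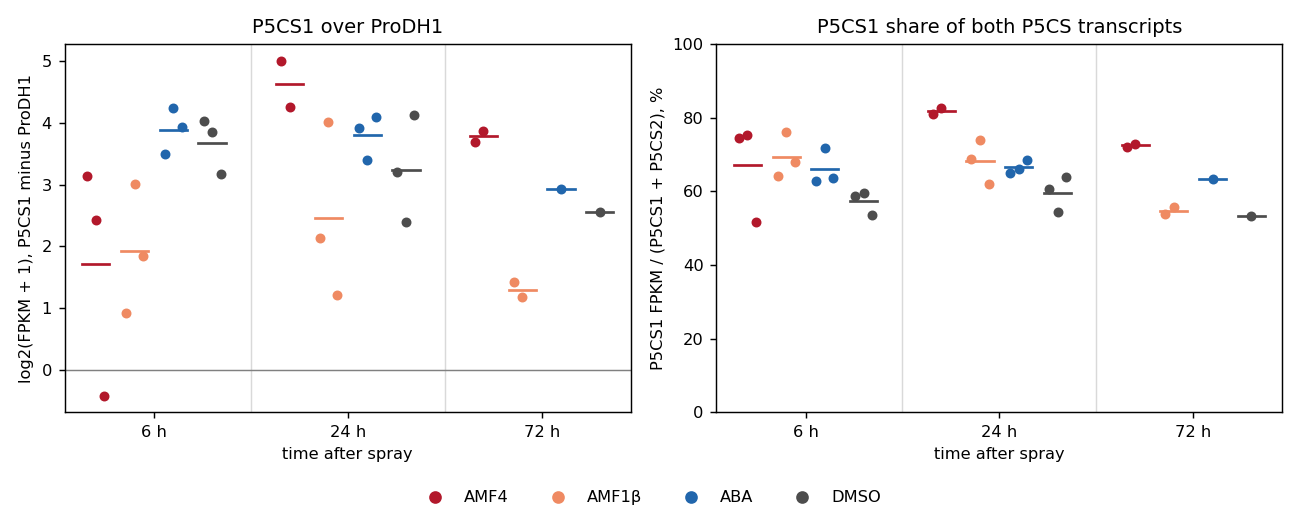
Left, log2(FPKM + 1) of P5CS1 minus that of ProDH1; right, P5CS1 as a percentage of the summed FPKM of P5CS1 and P5CS2; points are libraries, bars are group means, ordered AMF4, AMF1β, ABA and DMSO within 6, 24 and 72 h. The P5CS1 share after AMF4 lies above 80% in both 24 h libraries, against at most 63.8% after DMSO.

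The members also varied together among libraries of the same group. Deviations from the group mean were correlated over the 27 libraries of groups with 2 or more, with permutations drawn within groups and adjustment over 15 pairs. P5CS1 went with P5CS2 (r = 0.91, rho = 0.89, permutation p = 5e-05 and 0.00022, adjusted p = 0.00075 and 0.0033) and with P5CDH (r = 0.83, rho = 0.77, permutation p = 0.00194 and 0.00074, adjusted p = 0.0097 and 0.00555). P5CR ran opposite to ProDH1 (r = -0.79, rho = -0.74, permutation p = 0.00123 and 0.00138, adjusted p = 0.00922 and 0.0069). Without the 2 libraries farthest from the median these values of r were 0.89, 0.74 and -0.71. Within 6 h (12 libraries) and 24 h (11 libraries) they were 0.92 and 0.93 for P5CS1 with P5CS2, 0.87 and 0.90 for P5CS1 with P5CDH, and -0.79 and -0.80 for P5CR with ProDH1. P5CS1 and ProDH1 had r = -0.58 and rho = -0.50 (permutation p = 0.0342 and 0.0434, adjusted p = 0.0855 and 0.093). Both values of a point come from the same library and share its depth and composition.

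The within-group spread of P5CS1 also went with the summed FPKM of the 4 leaf markers (r = 0.90, rho = 0.90, permutation p = 6e-05 and 3e-05, adjusted p = 0.00072 and 0.00036 over 12 relations, and r = 0.84 without the 2 farthest libraries). ProDH1 had r = -0.67 and rho = -0.62 with that sum (permutation p = 0.0109 and 0.0104, adjusted p = 0.0653 and 0.0623). P5CS1 had r = -0.59 and rho = -0.43 with relative depth (permutation p = 0.0362 and 0.088, adjusted p = 0.109 and 0.211). The leaf marker sum itself was 11513 to 27402 FPKM after AMF4, 23201 to 32165 FPKM after AMF1β, 20853 to 29054 FPKM after ABA and 29606 to 43749 FPKM after DMSO at 6 h. At 24 h it was 20301 and 27328 FPKM after AMF4, 14015 to 31171 FPKM after AMF1β, 29419 to 32053 FPKM after ABA and 27603 to 44974 FPKM after DMSO.

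With the leaf marker sum as a covariate, a fit added after this relation was seen, P5CS1 was called at 6 h after AMF4 (1.93, adjusted p = 0.000350), AMF1β (1.28, adjusted p = 0.00269) and ABA (2.21, adjusted p = 1.18e-05), and at 24 h after AMF4 (3.48, adjusted p = 1.07e-06) and AMF1β (2.02, adjusted p = 0.00137). P5CS2 was then called after ABA at 6 h (1.26, adjusted p = 0.000552) and after AMF4 at 24 h (1.41, adjusted p = 0.00115). In that fit the ProDH1 differences at 6 h were 1.91 for AMF4, 2.0 for AMF1β and 0.91 for ABA, the last below 2-fold, and ProDH2 (0.54 for AMF4, 0.88 for AMF1β) was no longer called. P5CR after AMF1β at 6 h (-0.96) and ProDH1 after AMF4 at 24 h (0.82) also missed the 2-fold limit. At 6 h each fit called 6 member values, 2 of them in both, and at 24 h 2 were called in both. The covariate is measured in the same libraries after the spray and moved with the treatment, so its values and the effect of the compounds cannot be told apart.

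**Figure D4:**
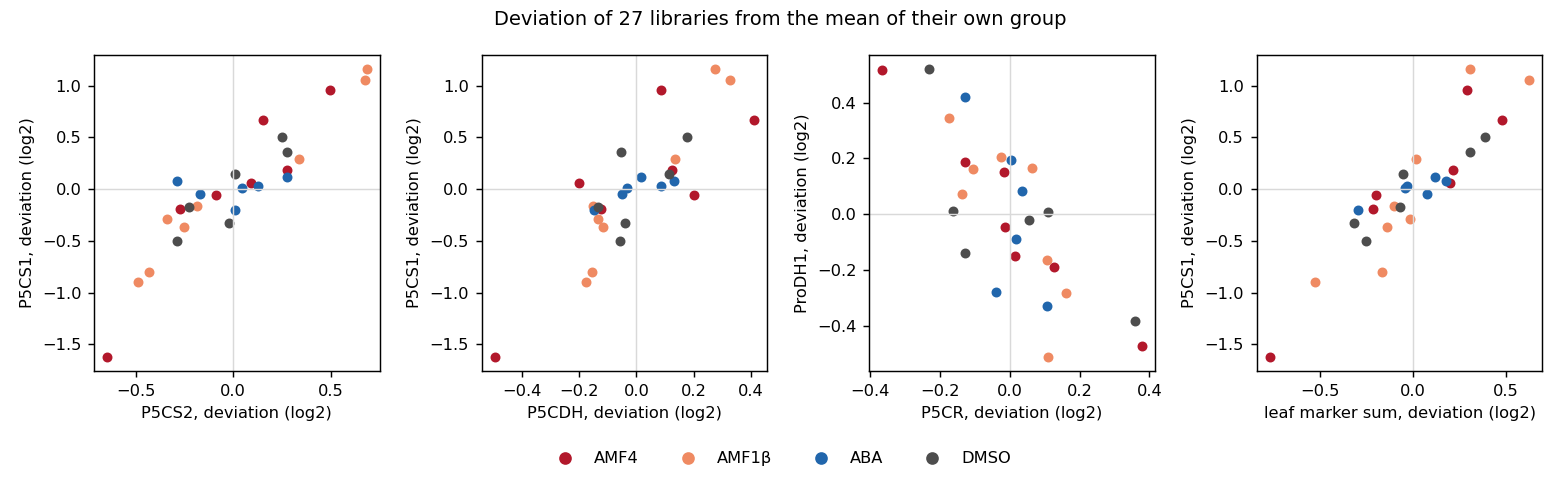
Deviation of log2 values from the mean of the library's own group, for 27 libraries coloured by compound (AMF4, AMF1β, ABA, DMSO): P5CS1 against P5CS2, P5CS1 against P5CDH, ProDH1 against P5CR, and P5CS1 against the summed leaf markers. The correlation is 0.91, 0.83, -0.79 and 0.90 across the panels.

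The ornithine and arginine route, which feeds pyrroline-5-carboxylate from arginine, was followed in 10 genes. At 6 h 2 were higher and 1 lower after AMF4, 1 was higher after AMF1β and 3 were higher after ABA, with list medians of 0.13, -0.02 and 0.06 on the log2 scale against 0.09, 0.05 and 0.01 over all genes. Among all genes tested, 4.21% were higher and 4.35% lower after AMF4, 2.69% were higher after AMF1β and 3.71% were higher after ABA. OAT, the ornithine aminotransferase of mitochondria, had 38.4, 23.7 and 31.4 FPKM after ABA against 9.90, 11.8 and 13.9 FPKM after DMSO (1.31, SE 0.21, adjusted p = 0.000163 in limma). Its means were 24.7 ± 8.86 FPKM after AMF4 and 22.9 ± 1.22 FPKM after AMF1β (SD, n = 3 each). BAC2, a mitochondrial carrier of basic amino acids, had 2.60, 1.69 and 1.84 FPKM after AMF4 and 4.56, 2.90 and 6.13 FPKM after ABA, against 0.380, 0.0510 and 0.299 FPKM after DMSO, and it was called for both compounds (1.29 and 2.12, adjusted p = 0.000129 and 6.76e-07). It was called again after AMF4 at 24 h (1.25, SE 0.23, adjusted p = 0.00154). The arginase gene ARGAH2 was called after all 3 compounds at 6 h (1.96, 2.21 and 2.31 for AMF4, AMF1β and ABA). Its DMSO libraries spread widely, at 204 ± 189 FPKM (SD, n = 3). The means were 647 ± 286 FPKM after AMF4, 811 ± 483 FPKM after AMF1β and 802 ± 235 FPKM after ABA. CARA, a subunit gene of carbamoyl phosphate synthetase, was called lower after AMF4 at 6 h (-1.25, adjusted p = 2.32e-05 in limma). Its means there were 12.9 FPKM after AMF4, 16.4 FPKM after AMF1β and 17.4 FPKM after ABA, against 32.4 FPKM after DMSO. BAC2 averaged 1.07 FPKM after AMF1β at 6 h, against 0.243 FPKM after DMSO. A call for 1 compound is thus not a change found after that compound alone.

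Of 6 genes for transporters that can carry proline, 1 was lower after AMF4 and 1 higher after ABA at 6 h, 2 were lower after AMF4 and 1 lower after ABA at 24 h, and none was called at 72 h. Among all genes tested, 4.35% were lower after AMF4 and 3.71% higher after ABA at 6 h. At 24 h 2.36% were lower after AMF4 and 0.491% lower after ABA. With 6 genes, these counts are a description only. PROT3, a proline transporter, had 2.09, 1.98 and 1.24 FPKM after AMF4 against 8.68, 9.20 and 3.48 FPKM after DMSO at 6 h (-1.48, SE 0.39, adjusted p = 0.00823), and 2.19 and 2.01 FPKM after AMF4 against 9.78, 10.4 and 11.7 FPKM after DMSO at 24 h (-1.91, SE 0.44, adjusted p = 0.00825). The permease gene AAP1 was higher after ABA at 6 h (1.81, SE 0.23, adjusted p = 1.39e-05 in limma), with 123, 97.9 and 104 FPKM against 35.7, 33.1 and 23.0 FPKM after DMSO. Its means at 6 h were 54.0 FPKM after AMF4 and 55.2 FPKM after AMF1β. AAP6 was lower after AMF4 at 24 h (-2.01, adjusted p = 0.0163 in limma), and LHT1 was lower after ABA (-1.58, adjusted p = 0.0488 in limma). At 24 h AAP6 averaged 36.5 FPKM after AMF1β and 22.6 FPKM after ABA, against 51.7 FPKM after DMSO. LHT1 then averaged 20.3 FPKM after AMF4 and 40.2 FPKM after AMF1β, against 41.9 FPKM after DMSO.

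Of 13 tested genes of glutamate metabolism, the pool from which proline is drawn, at most 2 were called in any comparison with DMSO. The share of all genes called in these comparisons ran from 0% for ABA at 72 h to 8.56% for AMF4 at 6 h. At 6 h GLN1;3, a cytosolic glutamine synthetase gene, was higher after ABA (1.31, adjusted p = 2.02e-05), GDH1, a glutamate dehydrogenase gene, was lower after ABA (-1.08, adjusted p = 0.000997), and GLT1, the NADH-dependent glutamate synthase gene, was lower after AMF4 (-1.28, adjusted p = 0.00118). GAD4, a glutamate decarboxylase gene, was lower after AMF4 at 72 h (-1.84, adjusted p = 0.0158). It was low there, at 0.20 ± 0.29 FPKM (SD, n = 2) against 3.25 FPKM in the lone DMSO library. The DMSO means at 6 and 24 h were 1.29 and 2.03 FPKM.

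Of 14 known or proposed regulators of the proline genes, 12 were tested. MYB2, an ABA-responsive transcription factor, was higher at 6 h after AMF4 (1.35), AMF1β (1.28) and ABA (2.11), with 7.61, 2.13 and 7.10, 4.83, 6.63 and 3.25, and 14.2, 4.39 and 11.8 FPKM, against 1.80, 1.25 and 1.09 FPKM after DMSO. PHL1, a relative of the phosphate-starvation regulator PHR1, was higher after ABA at 6 h (1.15, adjusted p = 0.000473 in limma). Its means there were 15.8 FPKM after AMF4, 11.6 FPKM after AMF1β and 19.7 FPKM after ABA, against 8.31 FPKM after DMSO. HYH, a bZIP factor related to HY5, was lower at 6 h after AMF4 (-1.48), AMF1β (-1.66) and ABA (-1.68), yet its DMSO values of 33.9, 14.4 and 6.2 FPKM spread in the same order as LHY. bZIP63, which binds ACTCAT elements, was higher after AMF4 at 72 h (1.84, SE 0.45, adjusted p = 0.0390), with 14.5 and 4.92 FPKM against 1.67 FPKM in the lone DMSO library.

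Among 3 tested genes of dark and sugar starvation, DIN1, a gene induced by darkness, was higher at 24 h after AMF4 (3.32, SE 0.65, adjusted p = 0.00281) and AMF1β (2.71, SE 0.58, adjusted p = 0.0117), with 51.9 and 28.9 FPKM and 12.8, 78.5 and 14.9 FPKM, against 2.09, 4.69 and 2.57 FPKM after DMSO. Among 11 clock genes, LHY was lower at 6 h after AMF4 (-2.15), AMF1β (-2.25) and ABA (-2.32), with adjusted p = 0.0123, 0.0129 and 0.00980. RVE8 was lower after ABA (-1.19, adjusted p = 0.00300). These LHY and RVE8 differences are set against DMSO libraries that themselves differ. Within groups, over 27 libraries, LHY had r = 0.20 and rho = 0.45 with ProDH1 (permutation p = 0.0337 and 0.037, adjusted p = 0.109 and 0.148 over 12 relations), and r = 0.50 without the 2 farthest libraries. It had r = -0.34 and rho = -0.34 with P5CR (permutation p = 0.0488 and 0.149, adjusted p = 0.117 and 0.298), and r = -0.36 without those libraries. With P5CS1 it had r = 0.17 and rho = 0.11 (permutation p = 0.316 and 0.644, adjusted p = 0.421 and 0.81).

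The genes whose pattern over the 29 libraries was most like each member were found by Pearson's r on the log2 scale. For P5CS1 these were AT1G62510, a lipid-transfer family gene (r = 0.89), P5CS2 (0.87), AT2G29300 and AT3G07350 (both 0.85), and CLC-A, a chloride channel family gene (0.85). ProDH1 was followed most closely by AT5G63350 (0.91), the MAP kinase gene MPK5 (0.90), AT1G23200 (0.88), the G-box binding factor gene GBF2 (0.88) and the GH3 family gene AT4G27260 (0.87). For P5CR, 4 of the 5 closest genes were annotated as ribosomal proteins (AT1G02780, AT4G29410, AT5G56710 and AT4G34670, r = 0.93 to 0.92). P5CDH was closest to VAB3, a subunit gene of the vacuolar ATPase (0.90), and to the annexin gene ANNAT1 (0.89), and ProDH2 to AT1G73810 (0.86) and SCL13 (0.85). For P5CS2 the closest gene was P5CS1 (0.87), followed by KCS4 (0.85).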

How the data were processed

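Total RNA of leaf samples was sequenced on an Illumina instrument. Per the methods of the study and the submitters' processing notes, the authors mapped reads to the TAIR10 genome with TopHat2 and computed gene FPKM values with Cufflinks. Tool versions, strand and the exact reads per library were among the facts not given in the sources used here, and annotation beyond TAIR10 was not stated. The deposited table holds FPKM per gene and library, with no coordinates. The methods speak of duplicate biological replicates, whereas groups hold 1 to 3 libraries, and all 29 were used. Since FPKM keep no counts, depth was gauged only in relative terms, from the ratios of values under 0.1 FPKM between libraries (0.46 to 1.95 of the median), and no library was identical to another. Lower relative depth means larger counting error, most of all for ProDH2.

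log2(FPKM + 1) values of genes with at least 1 FPKM in at least 2 libraries were fitted in limma 3.58.1 (R 4.3.3) with a mean for each of 12 groups and a trended empirical Bayes spread, and 26 contrasts were adjusted by Benjamini-Hochberg over 18521 genes. The filter and threshold (adjusted p under 0.05 and over 2-fold or under 0.5-fold) apply throughout, and the fit was tested on simulated data. Balance and P5CS1 share were compared by exact permutation tests, and correlations by 100000 permutations within groups (scipy 1.17.1). The named list genes are those with the largest change, up to 3 per direction and list, among genes called against DMSO, plus LHY and CCA1. CCA1 was not called against DMSO. The members and lists were chosen with earlier results of these data known. Alternatives were another pseudocount, filter, scaling, sample set or spread model, a replicate block, and leaving out each library. Promoter and transcript sequences came from RefSeq's TAIR10.1 assembly, which matched 32817 of the 33559 gene identifiers and all 6 members.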

Additional observations from a re-analysis of the deposited data

Results flagged for a closer look

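For 6 results a compound's effect differed between 24 and 6 h in a direct test of that difference (limma interaction, adjusted over all genes). The groups hold at most 3 libraries, too few to look for single outlying libraries. The effect over DMSO at 24 minus that at 6 h was -1.33 for ProDH1 after ABA, -1.53 for ProDH2 after ABA, -1.68 for ProDH2 after AMF4 and 1.01 for P5CR after AMF4. For AMF4 over ABA it was 3.06 for P5CS1 and 1.98 for P5CS2. In the DMSO plants alone, 24 minus 6 h was 0.83 for ProDH1, 0.50 for ProDH2 and -0.48 for P5CR. Of 37 alternatives to each of the 6 results, the call was kept in 27, 13, 26, 30, 15 and 29, in the order given. No alternative turned a direction, but many left out a library outside the compared groups, where the difference itself cannot change. ProDH2 lies near the filter on low values, and its AMF4 result was lost without AMF4 6 h replicate 3 or either AMF4 24 h library. The P5CS1 result was lost without AMF4 6 h replicate 3, either AMF4 24 h library or any ABA library of either time (adjusted p up to 0.230).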

How the results depend on the processing

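Of 5898 member values under alternatives, 5725 kept their call or lack of one, 119 lost a call and 54 gained one. None turned the direction of a called value, and 129 values called under neither setting changed sign. Many of these alternatives left out a library of a group outside the comparison. They kept the difference itself and changed only the shared spread and the adjustment, so the counts overstate how far the calls were tried. Calls were counted per gene and comparison, so that a gene can count more than once. Against DMSO there were 6 calls at 6 h, all on ProDH1, ProDH2 and P5CR. There were 3 at 24 h, all on P5CS1 and ProDH1, and 0 at 72 h. Leaving out single libraries gave 4 to 7, 1 to 3 and 0 to 0. Between compounds the calls were 1, 2 and 0 at 6, 24 and 72 h, with 0 to 2, 1 to 3 and 0 to 0 on leaving out libraries. The 6 calls for the change between 6 and 24 h ranged from 1 to 9, and the 2 between times in DMSO plants from 1 to 3. With the DMSO libraries of 24 and 72 h joined as control, there were 3 calls at 72 h: ProDH1 after AMF4 and after AMF1β, and P5CS1 after AMF4. With libraries of the same time only, 0 were called between compounds at 6 h. The change between 6 and 24 h gave 1 call with no filter on low values and 2 with DMSO 6 h replicate 3 as the only 6 h control, where the DMSO times gave 0. With the leaf marker covariate, chosen after seeing the data, the counts against DMSO were 6 at 6 h and 4 at 24 h, of which 2 and 2 were also called without it, and 1 at 72 h, with 2 and 5 between compounds at 6 and 24 h, 13 for the change between 6 and 24 h and 1 between DMSO times. Replicate numbers did not pair the libraries: over 13 pairs of groups of the same time, deviations of same-numbered libraries correlated between -0.253 and 0.243, and in 0 of 13 pairs were all above 0.1. The replicate block left 3 calls for the change between 6 and 24 h in place of 6 and changed no other count of calls. The balance difference ranged over -1.42 to -0.80 at 6 h and -0.16 to 0.70 at 24 h on leaving out libraries, the sign turning at -0.163 without DMSO 24 h replicate 2 (exact permutation p = 1). The share difference ranged over 8.34 to 12.2 percentage points at 6 h, with exact permutation p = 0.0121 without AMF4 6 h replicate 3, and 8.78 to 13.5 at 24 h, with exact permutation p = 0.0889 without DMSO 24 h replicate 1 (12) or 2 (8.78). The causes were not tested.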
